A study of Mus musculus with 21 samples.

Results

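Pericyte markers are described here through 8 genes, Rgs4, Rgs5, Cspg4, Pdgfrb, Kcnj8, Abcc9, Notch3 and Mcam, which were taken by symbol from the 53801 genes counted in each mouse library. The rule names the genes and uses no measured value, but the genes were chosen with earlier results of these data known. The hearts were sampled in the infarct border zone on day 7 and formed 4 groups. They were 4 hearts with myocardial infarction (MI) and FAPI treatment, 4 MI hearts of FapKO mice, 4 MI hearts and 3 sham-operated hearts. All hearts except the FapKO ones were wild type, and all except the sham ones had an MI. FAPI stands for an inhibitor of Fap, a serine protease of activated fibroblasts, and the sources used here name neither the compound and its dose nor the mouse strain or the way in which Fap was deleted. A separate experiment held cardiac fibroblasts kept for 7 days in a 5% GelMA hydrogel, a gelatin-based 3D matrix. In it, 3 libraries came from fibroblasts grown with cardiac and lung endothelial cells and sorted as CD45-CD31-Pdgfra+ cells, and 3 came from fibroblasts grown alone, which were not sorted.

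Pericytes are mural cells that sit on the outside of capillaries and share their basement membrane. They are recruited and kept there by PDGF-B from endothelial cells, which acts on the receptor that Pdgfrb encodes, and mural identity depends on NOTCH3, which reads Jagged ligands on neighbouring cells. In the heart they are among the most abundant non-muscle cells, they set capillary tone in part through an ATP-sensitive potassium channel made of the products of Kcnj8 and Abcc9, and after injury some of them leave the capillary wall. None of the 8 genes is exclusive to pericytes. Pdgfrb is also expressed by fibroblasts, Notch3 by arterial smooth muscle, Mcam by endothelium and Abcc9 by cardiac muscle.

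The heart libraries held 18474138 to 37287355 counts and the fibroblast libraries 4735337 to 15650221, fewer in co-culture (4735337 to 6346015) than alone (12871240 to 15650221). Levels are given in CPM, the usual per-million unit of counts, after correction of the library totals with edgeR's TMM factors, and each gene had at least 107 counts in every heart. Fap itself had 1.79 to 2.36 CPM in FapKO hearts and 9.40 to 13.2 CPM in MI hearts, without overlap. A library of tissue holds the RNA of all its cells, so fewer cells of a type and less RNA per cell cannot be told apart. The other cells of the tissue differed between the groups as well. The 12 cardiomyocyte markers summed to 34490 to 60900 CPM in FAPI hearts, 50420 to 60460 CPM in FapKO hearts, 10990 to 32530 CPM in MI hearts and 88340 to 100800 CPM in sham hearts. MI replicate 3 had the highest sum of its group (32530 CPM, against 10990 to 16740 CPM in the other MI hearts).

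After MI the 8 genes split into 2 sets. Rgs5, Kcnj8 and Abcc9 fell, and Rgs4, Pdgfrb, Notch3, Cspg4 and Mcam rose, so that 5 of 8 were higher and 3 were lower in MI than in sham hearts. In FAPI hearts 6 of 8 differed from MI hearts, and in FapKO hearts also 6 of 8. Kcnj8, Abcc9 and Rgs5 were higher, and Pdgfrb, Notch3 and Mcam lower, than in MI hearts under either condition. Rgs4 and Cspg4 passed neither of these tests. With only the FAPI and MI hearts fitted, 1 gene was higher and 3 were lower in FAPI, and Rgs5 and Abcc9 did not pass. That fit called 4052 genes in all. A gene was called at an adjusted p under 0.05 by edgeR's quasi-likelihood F test with Benjamini-Hochberg adjustment over all 17064 genes tested. Among all genes, 69.1% were called between MI and sham hearts (37.1% higher and 32.0% lower in MI). The corresponding shares were 29.8% between FAPI and MI hearts (17.9% higher and 11.9% lower in FAPI) and 51.0% between FapKO and MI hearts (25.0% higher and 26.0% lower in FapKO). The median log2 fold change of the 8 genes was 0.57 in MI over sham (0.14 over all genes tested), -0.03 in FAPI over MI (-0.03 over all genes) and -0.27 in FapKO over MI (-0.08 over all genes). With libraries scaled by their totals alone the calls were 5 higher and 2 lower in MI over sham, 1 higher and 4 lower in FAPI over MI, and 2 higher and 5 lower in FapKO over MI hearts. Under that scaling 14700 of the 17064 genes were called in MI over sham, 9933 in FAPI over MI and 12531 in FapKO over MI. The levels did not overlap between MI and sham hearts in 7 of the 8 genes (67.5% of all genes), between FAPI and MI hearts in 5 (26.1% of all genes) and between FapKO and MI hearts in 6 (45.4% of all genes). These 3 comparisons use the same 4 MI hearts, so their values are set side by side and were not tested against each other.

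**Figure D1:**
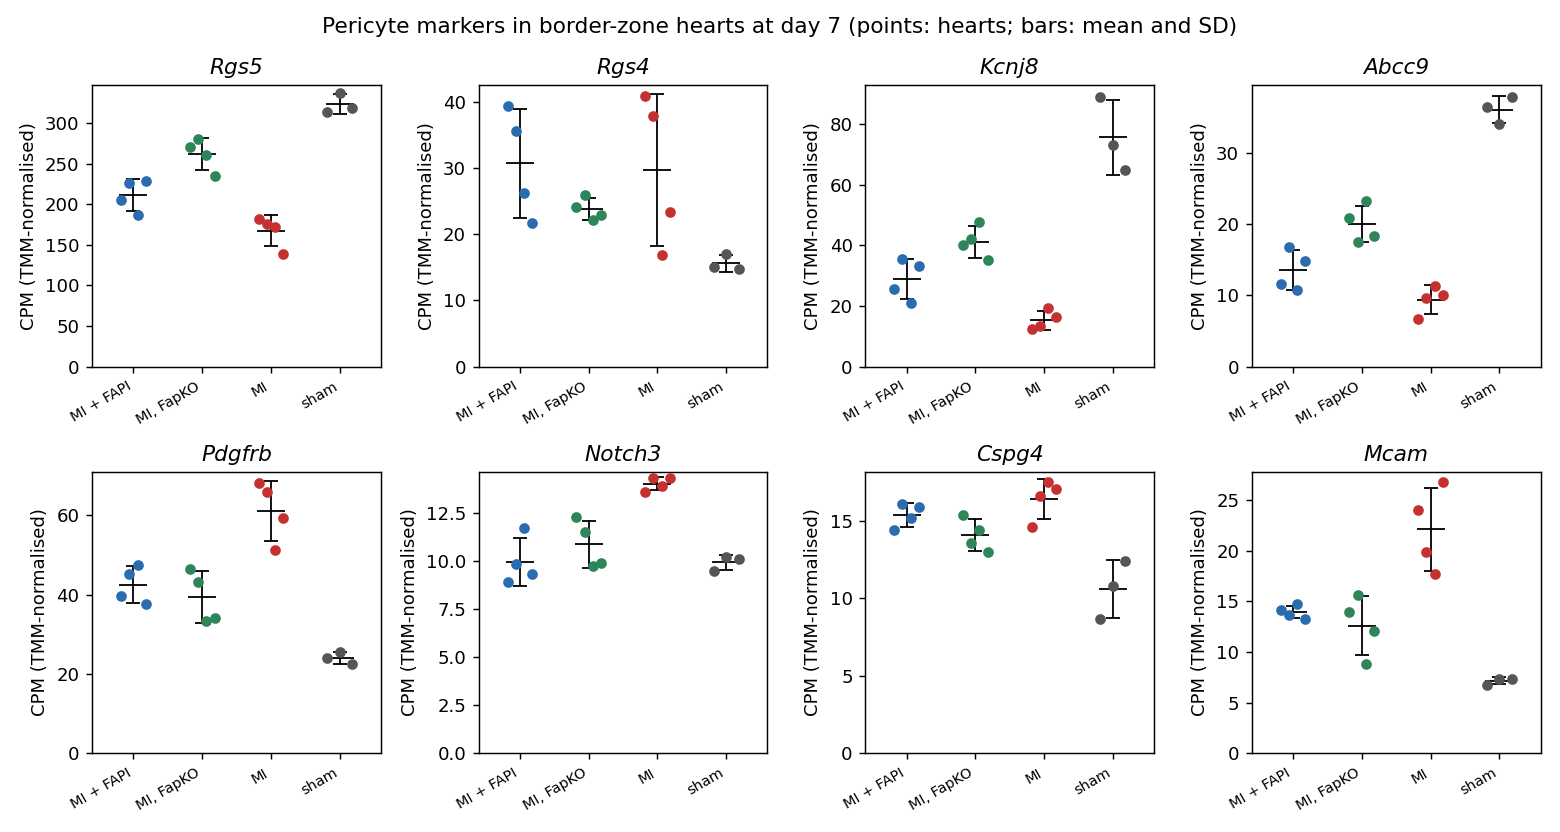
CPM of each of the 8 genes in the border zone on day 7 (vertical axes, linear and starting at 0) in MI + FAPI, MI FapKO, MI and sham hearts. Points are hearts, horizontal lines are means and bars are SD. Rgs5, Kcnj8 and Abcc9 are lowest in the MI group, Pdgfrb, Notch3 and Mcam are highest in it, and Rgs4 spreads widely in FAPI and MI hearts.

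**Figure D2:**
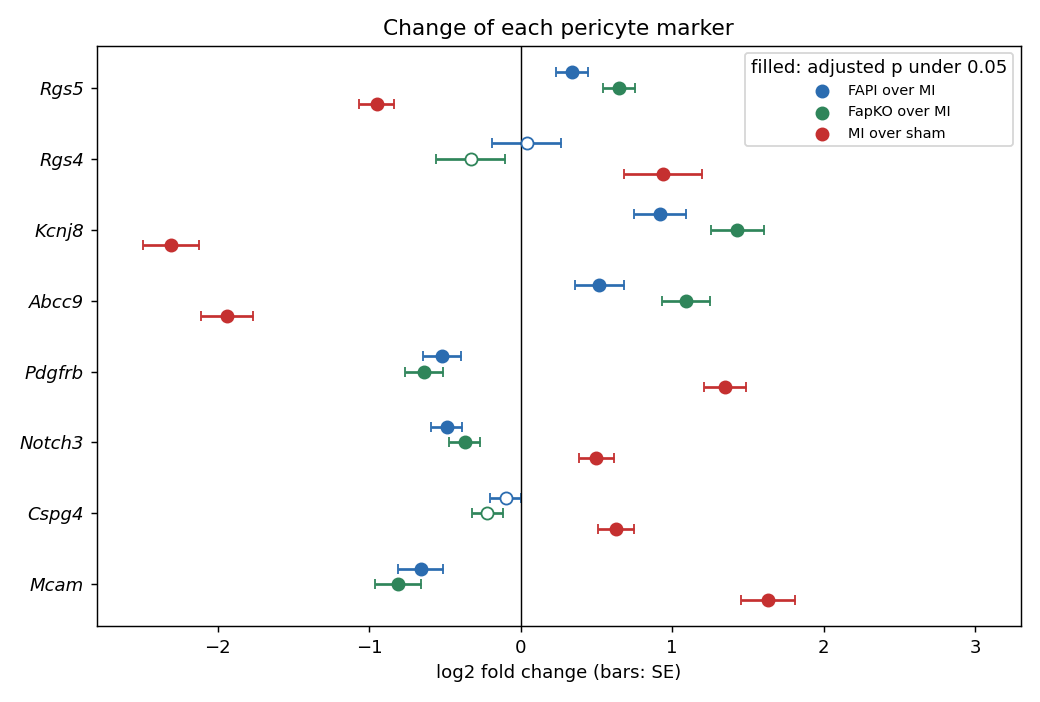
Log2 fold change of each gene (horizontal axis, bars SE) in FAPI over MI, FapKO over MI and MI over sham hearts. Filled points passed an adjusted p of 0.05 and open points did not. The open points are Rgs4 and Cspg4 in both comparisons with MI.

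Rgs5 and Rgs4 encode small GTPase-activating proteins that shorten signalling by Gq and Gi, the G proteins behind many vasoconstrictor receptors, and Rgs5 is a widely used transcript marker of pericytes. They are neighbours on chromosome 1 (mm10, GENCODE M21). Rgs5 spans chr1:169655501-169695813 on the plus strand and Rgs4 chr1:169741477-169747642 on the minus strand, 45.7 kb apart with 0 annotated genes between them. Their promoters are shown because the neighbours moved in opposite directions after MI. The stretches run from 250 bases before to 50 bases after the start site in RefSeq's GRCm38.p6, and lie at chr1:169655251-169655550 (plus) and chr1:169747593-169747892 (minus). Capitals mark a TATAAA, the core of a TATA box, or a TGGGAA, the core letters read by RBPJ, the DNA-binding partner of Notch, searched on both strands.
Rgs5: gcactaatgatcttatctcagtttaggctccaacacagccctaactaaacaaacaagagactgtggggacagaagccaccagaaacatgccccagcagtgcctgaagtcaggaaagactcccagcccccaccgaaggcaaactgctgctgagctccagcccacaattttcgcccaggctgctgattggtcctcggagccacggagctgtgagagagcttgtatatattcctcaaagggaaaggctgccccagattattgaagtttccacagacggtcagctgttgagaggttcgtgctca
Rgs4: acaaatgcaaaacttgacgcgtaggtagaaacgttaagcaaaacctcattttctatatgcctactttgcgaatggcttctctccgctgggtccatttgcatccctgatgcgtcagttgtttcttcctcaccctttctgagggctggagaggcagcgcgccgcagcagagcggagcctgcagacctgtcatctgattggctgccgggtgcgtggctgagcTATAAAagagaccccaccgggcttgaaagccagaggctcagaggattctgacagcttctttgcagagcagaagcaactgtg
Rgs4 held a TATAAA at position -31 from its start and Rgs5 held neither string. Only these exact letters were searched. The Rgs5 stretch holds the related letters tatatat, which were not marked, so the search does not show that Rgs5 lacks a TATA box. TATAAA was found in 13.6% and TGGGAA in 25.6% of 32851 RefSeq promoters of the same length. A match is a description of letters and not of a bound site.

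Rgs5 had 205, 226, 187 and 229 CPM in the 4 FAPI hearts, 271, 280, 260 and 235 CPM in FapKO hearts, 182, 175, 172 and 139 CPM in MI hearts, and 313, 337 and 319 CPM in sham hearts. No 2 adjacent groups in this order of levels overlapped, with sham on top, then FapKO, FAPI and MI. Rgs5 was higher in FapKO hearts than in MI (a log2 change of 0.65, SE 0.107, adjusted p = 1.16e-04) and lower in MI than in sham hearts (-0.95, SE 0.115, adjusted p = 1.73e-06). The difference of FAPI from MI hearts was smaller (0.34, SE 0.107, adjusted p = 0.0243). It missed the threshold without FAPI replicate 2 (0.30, adjusted p = 0.0812), FAPI replicate 4 (0.30, adjusted p = 0.0771) or MI replicate 4 (0.26, adjusted p = 0.0875). It also missed it with no filter (0.35, adjusted p = 0.073) and with only these 2 groups fitted (0.31, adjusted p = 0.111). Over all settings tried its adjusted p ran from 0.00428 to 0.513.

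Rgs5 was also the gene whose direction depended on the scaling. With libraries scaled by their totals alone, the median of all genes moved to 1.23 on the log2 scale in MI over sham, -0.44 in FAPI over MI and -0.63 in FapKO over MI. Rgs5 then had log2 fold changes of 0.14 in MI over sham, -0.08 in FAPI over MI and 0.10 in FapKO over MI, none of which passed. Relative to the shifted medians these values were -1.09 in MI over sham, 0.36 in FAPI over MI and 0.73 in FapKO over MI. Under that scaling the other 7 genes kept their sign in MI over sham and in FapKO over MI, and in FAPI over MI the other exception was Rgs4 (-0.39, adjusted p = 0.209, which is 0.05 relative to the median of all genes).

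Rgs4 had 39.4, 35.5, 26.2 and 21.6 CPM in FAPI hearts, 24.1, 25.9, 22.1 and 22.8 CPM in FapKO hearts, 40.8, 37.8, 16.8 and 23.3 CPM in MI hearts, and 14.97, 17.0 and 14.7 CPM in sham hearts. The FAPI and MI hearts were widely spread and the FapKO hearts lay close together. The lowest MI heart, replicate 3, lay just below the highest sham heart, so that MI and sham hearts overlapped. Rgs4 was higher in MI than in sham hearts, by 0.94 on the log2 scale (SE 0.259, adjusted p = 0.00433). The differences from MI were 0.04 in FAPI hearts (SE 0.228, adjusted p = 0.911) and -0.33 in FapKO hearts (SE 0.229, adjusted p = 0.251). The FapKO difference passed when MI replicate 3 was left out (-0.52, adjusted p = 0.032). In counts of the same heart there were 7.33 ± 2.33 counts of Rgs5 per count of Rgs4 in FAPI, 11 ± 0.609 in FapKO, 6.32 ± 2.70 in MI and 20.8 ± 0.972 in sham hearts (SD, n = 4, 4, 4 and 3). This ratio and the ratios given further on were chosen after the values were seen and were not tested.

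Kcnj8 encodes the pore-forming subunit and Abcc9 the sulfonylurea receptor subunit of the vascular ATP-sensitive potassium channel, whose opening relaxes mural cells. They too are neighbours. Kcnj8 spans chr6:142564837-142571614 and Abcc9 chr6:142587862-142702315, both on the minus strand, 16.2 kb apart with 0 annotated genes between them. Their promoters are shown because the pair moved in the same direction in MI, FAPI and FapKO hearts, and are RefSeq's GRCm38.p6 stretches at chr6:142571565-142571864 and chr6:142702225-142702524, both on the minus strand, with capitals as above.
Kcnj8: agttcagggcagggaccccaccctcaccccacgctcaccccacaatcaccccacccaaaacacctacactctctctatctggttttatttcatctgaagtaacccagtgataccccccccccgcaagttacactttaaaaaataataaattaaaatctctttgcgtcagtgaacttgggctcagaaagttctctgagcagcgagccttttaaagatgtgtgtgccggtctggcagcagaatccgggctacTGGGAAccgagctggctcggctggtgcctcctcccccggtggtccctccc
Abcc9: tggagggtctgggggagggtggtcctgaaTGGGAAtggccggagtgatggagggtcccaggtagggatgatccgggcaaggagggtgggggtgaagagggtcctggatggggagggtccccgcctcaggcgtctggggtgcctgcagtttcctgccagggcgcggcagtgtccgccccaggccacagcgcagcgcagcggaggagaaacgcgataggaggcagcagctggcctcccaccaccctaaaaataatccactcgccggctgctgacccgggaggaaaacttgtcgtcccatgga
Each of the 2 held 1 TGGGAA, at position 0 (the start base) in Kcnj8 and at -221 in Abcc9, and neither held a TATAAA. Of the 8 genes, 7 had their promoters searched and Pdgfrb was left out, and a TGGGAA lay in these 2 of the 7 promoters.

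Kcnj8 showed the largest change of the 8 genes in FAPI over MI, in FapKO over MI and in MI over sham hearts. It had 25.6, 35.5, 21.1 and 33.3 CPM in FAPI hearts, 39.9, 42.0, 47.8 and 35.1 CPM in FapKO hearts, 12.3, 13.4, 19.3 and 16.2 CPM in MI hearts, and 89.0, 73.0 and 64.8 CPM in sham hearts. FAPI and MI hearts did not overlap, FapKO and MI hearts did not overlap, and every sham heart was above all others. Kcnj8 rose 1.89-fold in FAPI over MI hearts (log2 fold change 0.92, SE 0.173, adjusted p = 0.00109) and 2.69-fold in FapKO over MI hearts (1.43, SE 0.175, adjusted p = 6.97e-06). In MI it fell to 15.3 ± 3.16 CPM, against 75.6 ± 12.3 CPM in sham hearts (SD, n = 4 and 3), which is -2.31 on the log2 scale (SE 0.187, adjusted p = 2.35e-08). These 3 calls held under each of the 16 or 17 other settings tried for single genes.

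Abcc9 had 11.6, 16.8, 10.8 and 14.8 CPM in FAPI hearts, 20.9, 17.5, 23.2 and 18.4 CPM in FapKO hearts, 6.62, 9.56, 11.3 and 10.1 CPM in MI hearts, and 36.4, 34.0 and 37.8 CPM in sham hearts. The lowest FAPI heart lay below the highest MI heart, which was replicate 3, while FapKO hearts were all above MI hearts. Abcc9 was 2.13-fold higher in FapKO hearts than in MI (1.09 on the log2 scale, SE 0.16, adjusted p = 3.78e-05) and lower in MI than in sham hearts (-1.94, SE 0.171, adjusted p = 5.26e-08). In FAPI over MI the change was 0.52 (SE 0.16, adjusted p = 0.0212). It missed the threshold without FAPI replicate 2 (0.40, adjusted p = 0.0767), FAPI replicate 4 (0.48, adjusted p = 0.0663) or MI replicate 1 (0.39, adjusted p = 0.0618), and with total-count scaling (0.10, adjusted p = 0.57, the highest of its settings, whose lowest was 0.00455). With only these 2 groups fitted it missed the threshold as well (0.50, adjusted p = 0.071). Abcc9 shares 158 exon bases with the antisense gene 5330439B14Rik, and no source used here gives the strand setting of the counting.

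The cardiac muscle channel uses Kcnj11 in place of Kcnj8, and Abcc8 encodes the receptor subunit best known from pancreatic beta cells. Both of these genes moved in the direction of Kcnj8 and Abcc9. Kcnj11 had a log2 fold change of 1.55 in FAPI over MI (adjusted p = 9.92e-04), 2.19 in FapKO over MI (adjusted p = 1.48e-05) and -2.87 in MI over sham (adjusted p = 4.6e-07). Abcc8 had 1.53 in FAPI over MI (adjusted p = 0.0024), 2.02 in FapKO over MI (adjusted p = 8.5e-05) and -2.84 in MI over sham (adjusted p = 1.77e-06). The 12 cardiomyocyte markers rose in 12 of 12 cases in FAPI over MI (median 1.63), in 12 of 12 in FapKO over MI (median 2.38), and fell in 12 of 12 in MI over sham (median -3.31). They thus moved in the direction of Kcnj8, Abcc9 and Rgs5 in each comparison. Within groups the genes followed the sum of these markers in part. MI replicate 3, with the most cardiomyocyte marker RNA of its group, had the highest Kcnj8 and Abcc9 of that group but the third highest Rgs5 (172 CPM). FapKO replicate 3, with the highest sum of its group (60460 CPM), had the highest Kcnj8 (47.8 CPM) and Abcc9 (23.2 CPM) but the third highest Rgs5 (260 CPM). FAPI replicate 4, with the highest sum of its group (60900 CPM), had the highest Rgs5 (229 CPM). Kcnj8 and Abcc9 were highest in FAPI replicate 2 (35.5 and 16.8 CPM), which had the next highest sum (48900 CPM). Sham replicate 2, with the highest sum of its group (100800 CPM), had the highest Rgs5 (337 CPM) but the lowest Abcc9 (34.0 CPM). Abcc9 was highest in sham replicate 3 (37.8 CPM), which had the lowest sum (88340 CPM). Kcnj8 was highest in sham replicate 1 (89.0 CPM, with a sum of 98800 CPM). The part of cardiomyocyte RNA in the 3 genes was not tested. Kcnj8 was counted 3.38 ± 0.452 times per count of Kcnj11 in FAPI, 3.07 ± 0.481 times in FapKO, 5.67 ± 1.76 times in MI and 3.45 ± 0.434 times in sham hearts (SD).

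Pdgfrb encodes the receptor through which PDGF-B holds pericytes on the vessel. It had 39.7, 45.3, 47.6 and 37.7 CPM in FAPI hearts, 46.5, 43.3, 33.4 and 34.2 CPM in FapKO hearts, 68.1, 66.0, 51.4 and 59.3 CPM in MI hearts, and 24.1, 25.5 and 22.4 CPM in sham hearts. All MI hearts were above all FAPI and FapKO hearts, and all sham hearts were below them. Pdgfrb was lower than in MI hearts in both treated and knockout hearts, with log2 fold changes of -0.52 in FAPI (SE 0.123, adjusted p = 0.00482) and -0.64 in FapKO (SE 0.124, adjusted p = 4.47e-04). It was 2.55-fold higher in MI than in sham hearts (1.35, SE 0.14, adjusted p = 3.3e-07). In the same hearts there were 5.03 ± 0.879 counts of Rgs5 per count of Pdgfrb in FAPI, 6.74 ± 0.819 in FapKO, 2.75 ± 0.422 in MI and 13.5 ± 0.693 in sham hearts (SD, n = 4, 4, 4 and 3). The highest MI heart (3.35) was below the lowest of any other group (3.92).

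Among the other PDGF genes, Pdgfb, the endothelial ligand of this receptor, was lower than in MI hearts in FAPI hearts (-0.55, adjusted p = 0.00433) and in FapKO hearts (-0.39, adjusted p = 0.0184), and had 0.30 in MI over sham (adjusted p = 0.0702). Pdgfc, a ligand of the alpha receptor, rose after MI (2.38, adjusted p = 1.66e-06), as did Pdgfra, the alpha receptor itself and a fibroblast marker (1.08, adjusted p = 3.36e-07). Both were lower in FapKO than in MI hearts (-1.18, adjusted p = 3.04e-04, for Pdgfc and -0.48, adjusted p = 6.77e-04, for Pdgfra). In FAPI over MI they had -0.35 (adjusted p = 0.219) and -0.24 (adjusted p = 0.0748), and neither passed. Pdgfa, another ligand of the alpha receptor, was lower in FAPI (-0.30, adjusted p = 0.0449) and FapKO hearts (-0.43, adjusted p = 0.00327) than in MI hearts. Pdgfd, which acts on the beta receptor, passed in none of the 3 comparisons (0.18 in FAPI over MI, -0.16 in FapKO over MI and 0.20 in MI over sham). Of the 5 genes, 2 were lower in FAPI than in MI hearts, 4 were lower in FapKO than in MI hearts, and 2 were higher in MI than in sham hearts, with the rest not passing.

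Notch3 (chr17:32120820-32166852, minus strand) encodes the Notch receptor of mural cells. It had 8.89, 9.86, 11.7 and 9.33 CPM in FAPI hearts, 12.3, 11.5, 9.76 and 9.91 CPM in FapKO hearts, 13.6, 14.3, 13.9 and 14.3 CPM in MI hearts, and 9.49, 10.2 and 10.1 CPM in sham hearts. The MI hearts were the 4 highest and lay within a narrow band, and the other 3 groups overlapped. Notch3 was lower than in MI hearts in FAPI hearts (log2 fold change -0.49, SE 0.101, adjusted p = 0.00189) and in FapKO hearts (-0.37, SE 0.101, adjusted p = 0.00613). It was higher in MI than in sham hearts (0.50, SE 0.113, adjusted p = 9.33e-04). Notch3 shares 488 exon bases with the antisense gene Gm17276.

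Of 12 other Notch genes, 0 rose and 3 fell in FAPI over MI, 1 rose and 2 fell in FapKO over MI, and 3 rose and 1 fell in MI over sham. The smallest p-values belonged to the same pair each time. Notch2, another receptor, had -0.68 in FAPI over MI (adjusted p = 9.69e-04), -0.94 in FapKO over MI (adjusted p = 1.62e-05) and 1.32 in MI over sham (adjusted p = 4.78e-07). Jag1, a ligand that activates NOTCH3 between vascular cells, had -0.78 in FAPI over MI (adjusted p = 0.00155), -0.88 in FapKO over MI (adjusted p = 2.26e-04) and 1.32 in MI over sham (adjusted p = 5.69e-06). The median of the 12 genes was -0.17 in FAPI over MI, -0.16 in FapKO over MI and 0.15 in MI over sham.

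Cspg4 (chr9:56865033-56899870, plus strand) encodes the NG2 proteoglycan of the pericyte surface. It had 14.4, 16.1, 15.2 and 15.9 CPM in FAPI hearts, 15.4, 13.6, 14.4 and 13.0 CPM in FapKO hearts, 14.6, 16.6, 17.5 and 17.1 CPM in MI hearts, and 8.69, 10.8 and 12.4 CPM in sham hearts. The groups with MI overlapped one another, and all their hearts were above the sham hearts. Cspg4 was 1.55-fold higher in MI than in sham hearts (log2 fold change 0.63, SE 0.117, adjusted p = 1.57e-04). Neither FAPI hearts (-0.10, SE 0.103, adjusted p = 0.506) nor FapKO hearts (-0.22, SE 0.103, adjusted p = 0.0855) passed the test against MI. The FapKO difference passed without MI replicate 1 (-0.28, adjusted p = 0.0443). With total-count scaling the differences were -0.52 in FAPI over MI (adjusted p = 0.00328) and -0.77 in FapKO over MI (adjusted p = 5.85e-05), which relative to the medians of all genes were -0.08 in FAPI and -0.14 in FapKO.

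Mcam (chr9:44134469-44142727, plus strand) encodes an adhesion molecule of mural and endothelial cells. It had 14.1, 13.7, 14.7 and 13.3 CPM in FAPI hearts, 13.9, 15.6, 8.77 and 12.1 CPM in FapKO hearts, 23.98, 19.9, 17.7 and 26.8 CPM in MI hearts, and 6.78, 7.32 and 7.37 CPM in sham hearts. MI hearts were above all FAPI and FapKO hearts, and sham hearts below them. Mcam was lower than in MI hearts in FAPI hearts (log2 fold change -0.66, SE 0.15, adjusted p = 0.00378) and in FapKO hearts (-0.81, SE 0.151, adjusted p = 3.29e-04). It rose 3.09-fold in MI over sham hearts (1.63, SE 0.178, adjusted p = 5.8e-07), the largest increase of the 8 genes after MI. Mcam shares 17 exon bases with the antisense gene Gm10687.

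Markers of other cells moved beside these genes. The 12 fibroblast markers had 0 higher and 3 lower members in FAPI over MI (median -0.31), 1 higher and 7 lower in FapKO over MI (median -0.64), and 11 higher and 1 lower in MI over sham (median 1.54). Their summed levels were 10540 to 15900 CPM in FAPI, 10010 to 10690 CPM in FapKO, 17040 to 23730 CPM in MI and 5247 to 5759 CPM in sham hearts. The 12 smooth muscle contractile genes had 2 higher and 9 lower members in FAPI over MI (median -0.70), 2 higher and 10 lower in FapKO over MI (median -1.26), and 10 higher and 2 lower in MI over sham (median 1.84). Their sums were 991.8 to 1496 CPM in FAPI, 813.6 to 1075 CPM in FapKO, 1838 to 2580 CPM in MI and 796.3 to 842.1 CPM in sham hearts. The 10 macrophage markers had 0 higher and 8 lower members in FAPI over MI (median -0.60), 0 higher and 10 lower in FapKO over MI (median -1.26), and 10 higher and 0 lower in MI over sham (median 1.92). They summed to 2225 to 2924 CPM in FAPI, 1283 to 1980 CPM in FapKO, 3447 to 4492 CPM in MI and 1109 to 1139 CPM in sham hearts. No gene of these lists was at 0 in any group of hearts. The medians of the fibroblast, smooth muscle and macrophage lists had the direction of Pdgfrb, Notch3 and Mcam in each comparison, although 9 of 12 fibroblast markers did not pass in FAPI over MI. The part of these cells in these genes was not tested.

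The 12 endothelial markers, which label the cells that pericytes cover, changed less. They had 1 higher and 1 lower member in FAPI over MI (median 0.12), 6 higher and 0 lower in FapKO over MI (median 0.34), and 2 higher and 6 lower in MI over sham (median -0.32). Their sums were 345.1 to 413.0 CPM in FAPI, 408.3 to 455.9 CPM in FapKO, 290.6 to 404.9 CPM in MI and 394.9 to 452.9 CPM in sham hearts. Set against the endothelial counts of the same heart, where library scaling has no part, Rgs5 had 57.0 ± 3.13 counts per 100 in FAPI, 60.1 ± 3.82 in FapKO, 50.8 ± 8.80 in MI and 77.7 ± 8.09 in sham hearts. FAPI and FapKO hearts overlapped the MI hearts in this ratio (42.5 to 60.2), while the sham hearts (69.2 to 85.3) were above all others. Kcnj8 had 7.70 ± 1.23 counts per 100 in FAPI, 9.45 ± 0.947 in FapKO, 4.58 ± 0.568 in MI and 18 ± 1.90 in sham hearts, and FAPI (6.08 to 8.72) and FapKO hearts (8.60 to 10.6) were all above MI hearts (3.79 to 5.13). Pdgfrb had 11.5 ± 1.61 counts per 100 in FAPI, 9.03 ± 1.37 in FapKO, 18.8 ± 4.39 in MI and 5.77 ± 0.611 in sham hearts, and the groups with the drug or the knockout overlapped the MI hearts (12.7 to 22.7) only in FAPI (9.87 to 13.7). Mcam had 3.79 ± 0.451 in FAPI, 2.91 ± 0.712 in FapKO, 6.78 ± 1.74 in MI and 1.72 ± 0.196 in sham hearts, where MI hearts (4.38 to 8.49) were above all others. All of these are means ± SD of 4, 4, 4 and 3 hearts. For the remaining genes the ranges are given. Abcc9 had 3.11 to 4.06 in FAPI, 4.09 to 5.14 in FapKO and 2.05 to 3.29 in MI hearts. Cspg4 had 3.91 to 4.37 in FAPI, 3.19 to 3.38 in FapKO and 4.33 to 5.7 in MI hearts. Notch3 had 2.39 to 3.38 in FAPI, 2.17 to 2.7 in FapKO and 3.43 to 4.93 in MI hearts. Rgs4 had 5.64 to 11.4 in FAPI, 4.9 to 6.07 in FapKO and 4.15 to 13.0 in MI hearts.

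**Figure D3:**
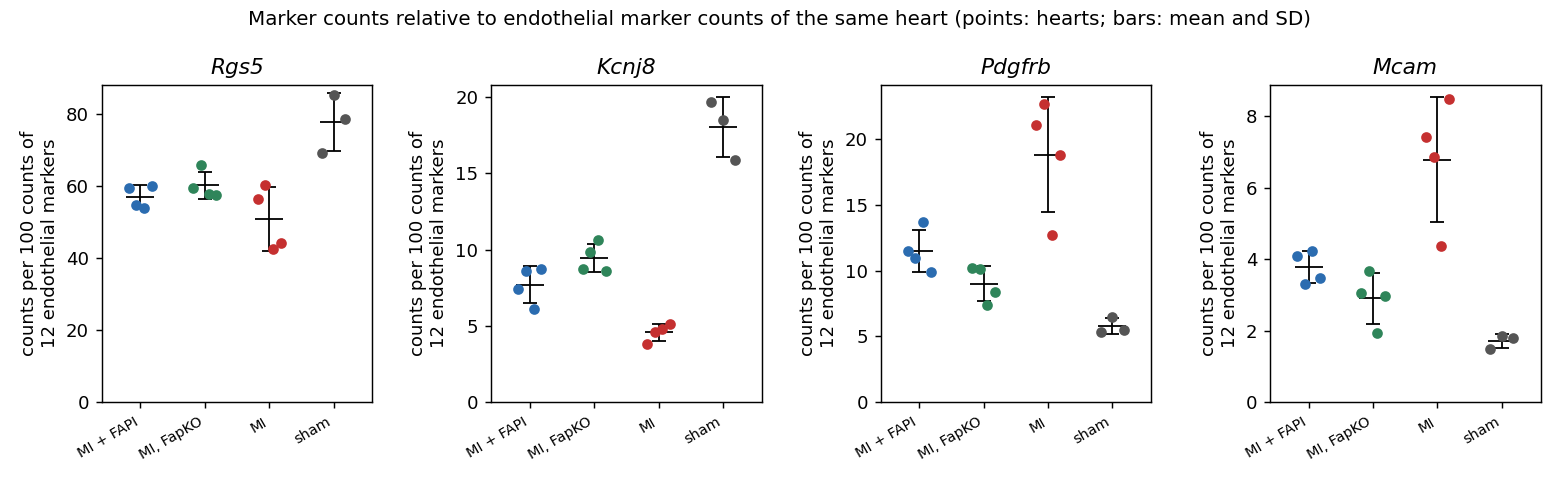
Counts of Rgs5, Kcnj8, Pdgfrb and Mcam per 100 counts of the 12 endothelial markers of the same heart (vertical axes, linear and starting at 0) in MI + FAPI, MI FapKO, MI and sham hearts. Points are hearts, horizontal lines are means and bars are SD. For Rgs5 the FAPI and FapKO hearts lie within or just above the MI range of 42.5 to 60.2, and for Kcnj8 they lie above the MI range of 3.79 to 5.13.

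Set against sham hearts, 7 of the 8 genes differed in FAPI hearts, 4 higher and 3 lower, against 55.8% of all genes (29.2% higher and 26.5% lower). In FapKO hearts 6 differed, 3 higher and 3 lower, against 39.5% of all genes (19.2% higher and 20.3% lower). Levels did not overlap with sham hearts in 7 of the 8 genes in FAPI hearts (57.5% of all genes) and in 7 in FapKO hearts (46.8% of all genes), Notch3 being the exception in both. With total-count scaling the calls were 5 higher and 2 lower in FAPI over sham, and 5 higher and 1 lower in FapKO over sham. Of all 17064 genes, 12401 were called in FAPI over sham and 9994 in FapKO over sham under that scaling. Kcnj8 had log2 fold changes of -1.39 in FAPI (adjusted p = 1.14e-05) and -0.88 in FapKO over sham hearts (adjusted p = 0.00156). Abcc9 had -1.42 in FAPI (adjusted p = 4.38e-06) and -0.85 in FapKO (adjusted p = 0.0011). Mcam was higher, by 0.97 in FAPI (adjusted p = 2.37e-04) and 0.82 in FapKO (adjusted p = 0.00207), and so was Pdgfrb, by 0.83 in FAPI (adjusted p = 1.09e-04) and 0.71 in FapKO (adjusted p = 9.92e-04). Notch3 had 0.01 in FAPI over sham (SE 0.113, adjusted p = 0.963) and 0.13 in FapKO over sham (SE 0.114, adjusted p = 0.369), and passed neither test. With total-count scaling it passed both (0.68, adjusted p = 0.00106, in FAPI and 0.67, adjusted p = 0.00209, in FapKO over sham), and relative to the medians of all genes these values were -0.09 in FAPI and 0.08 in FapKO.

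The remaining 3 genes were less even against sham. Rgs5 had -0.61 in FAPI over sham (adjusted p = 3.05e-04) and -0.30 in FapKO over sham (adjusted p = 0.0459). The FapKO call was lost when any 1 of the 7 hearts was left out, with log2 fold changes of -0.26 to -0.34 and adjusted p of 0.0503 to 0.139. Rgs4 had 0.98 in FAPI over sham (adjusted p = 0.00445) and 0.61 in FapKO over sham (adjusted p = 0.071), although FapKO and sham hearts did not overlap. Cspg4 had 0.53 in FAPI (adjusted p = 0.00108) and 0.41 in FapKO over sham (adjusted p = 0.0115), and the FapKO call was lost without sham replicate 1 (0.28, adjusted p = 0.0838). With total-count scaling Rgs5 had 0.05 in FAPI and 0.23 in FapKO over sham hearts, which relative to the medians of all genes (0.77 in FAPI and 0.59 in FapKO over sham) were -0.72 and -0.36.

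FAPI and FapKO hearts were then compared with each other. The difference passed in 1 of the 8 genes, against 13.2% of all genes, of which 7.05% were higher and 6.12% lower in FAPI. That gene was Abcc9, which was lower in FAPI than in FapKO hearts (log2 fold change -0.57, SE 0.158, adjusted p = 0.0261). Levels of 2 of the 8 genes, Abcc9 and Rgs5, did not overlap between FAPI and FapKO hearts (18.6% of all genes). The Abcc9 difference no longer passed without FAPI replicate 1 (-0.50, adjusted p = 0.0831), FAPI replicate 3 (-0.47, adjusted p = 0.0949), FapKO replicate 1 (-0.55, adjusted p = 0.0653) or FapKO replicate 3 (-0.49, adjusted p = 0.0948). Kcnj8 had -0.51 (SE 0.17, adjusted p = 0.057) and passed without FAPI replicate 2 (-0.63, adjusted p = 0.03) or FAPI replicate 4 (-0.59, adjusted p = 0.0397). With all hearts kept, Kcnj8 also passed with no filter (-0.50, adjusted p = 0.0161), DESeq2 (-0.53, adjusted p = 0.0315) and limma-voom (-0.53, adjusted p = 0.0499). Rgs5 had -0.31 (SE 0.107, adjusted p = 0.0687), with the highest FAPI heart at 229 CPM just under the lowest FapKO heart at 235 CPM. Under DESeq2 Rgs5 passed (-0.32, adjusted p = 0.0194). The other 5 genes had adjusted p of 0.301 to 0.574.

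Levels were also divided by exon length to set genes against each other. This holds only if counts grow with exon length, which was not tested in these barcoded libraries. Rgs5 led every group of hearts, with or without the division. It had 46.6 ± 4.35 CPM per kb in FAPI and 57.6 ± 4.28 in FapKO hearts. In MI hearts it had 36.8 ± 4.18 and in sham hearts 71.1 ± 2.67 (SD, n = 4, 4, 4 and 3). The ranks below Rgs5 depended on the division. In sham hearts, for example, Abcc9 was above Pdgfrb and Rgs4 in CPM but below them per kb. Per kb, the next place differed between the groups. In FAPI hearts it was held by Kcnj8 (11.3 ± 2.63), whose range overlapped that of Rgs4 (9.89 ± 2.65), and Rgs4 overlapped Pdgfrb (7.78 ± 0.847). In FapKO hearts Kcnj8 (16.2 ± 2.06) stood clear of Rgs4 (7.66 ± 0.544), which overlapped Pdgfrb (7.18 ± 1.19). In MI hearts Pdgfrb (11.2 ± 1.38), Rgs4 (9.59 ± 3.72), Mcam (6.60 ± 1.22) and Kcnj8 (6.01 ± 1.24) each overlapped the next. In sham hearts Kcnj8 (29.7 ± 4.84) stood clear of Rgs4 (5.02 ± 0.405), Rgs4 of Pdgfrb (4.39 ± 0.287), and Pdgfrb overlapped Abcc9 (4.31 ± 0.226). Notch3 and Cspg4 stayed at or under 1.73 ± 0.0454 CPM per kb in every group of hearts, and in MI hearts Cspg4 (1.38 ± 0.109) overlapped Abcc9 (1.12 ± 0.236), the lowest mean there.

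A longer list of 17 other genes described for pericytes also held genes of either direction. In FAPI over MI 4 rose and 2 fell, in FapKO over MI 6 rose and 5 fell, and in MI over sham 6 rose and 8 fell, with median log2 fold changes of -0.07 in FAPI over MI, -0.16 in FapKO over MI and -0.16 in MI over sham. The 6 called in FAPI over MI left 11 of 17 that did not pass, where 29.8% of all genes were called. Cox4i2, a subunit isoform of cytochrome c oxidase found in lung and mural cells, had 21.8 ± 5.33 CPM in FAPI, 32.5 ± 3.88 CPM in FapKO, 14.7 ± 1.10 CPM in MI and 50.6 ± 5.04 CPM in sham hearts (SD). It was higher in FapKO than in MI hearts (1.15, adjusted p = 8.91e-06) and lower in MI than in sham hearts (-1.78, adjusted p = 4.27e-08). Higd1b, a mitochondrial gene enriched in pericytes, had 52.2 ± 10.7 CPM in FAPI, 74.8 ± 6.45 CPM in FapKO, 40.0 ± 3.15 CPM in MI and 76.3 ± 9.25 CPM in sham hearts, and rose in FapKO over MI (0.90, adjusted p = 3.26e-05). Atp1b2, a sodium pump subunit, was lower in MI than in sham hearts (-1.06, adjusted p = 1.68e-07) but had -0.11 in FAPI over MI (adjusted p = 0.401) and 0.20 in FapKO over MI (adjusted p = 0.0983). Art3, an ectoenzyme gene that striated muscle also expresses, had 1.28 in FAPI over MI (adjusted p = 0.00225). Anpep, an aminopeptidase of pericytes, fibroblasts and myeloid cells, went the other way in the same comparison (-0.74, adjusted p = 0.00334).

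**Figure D4:**
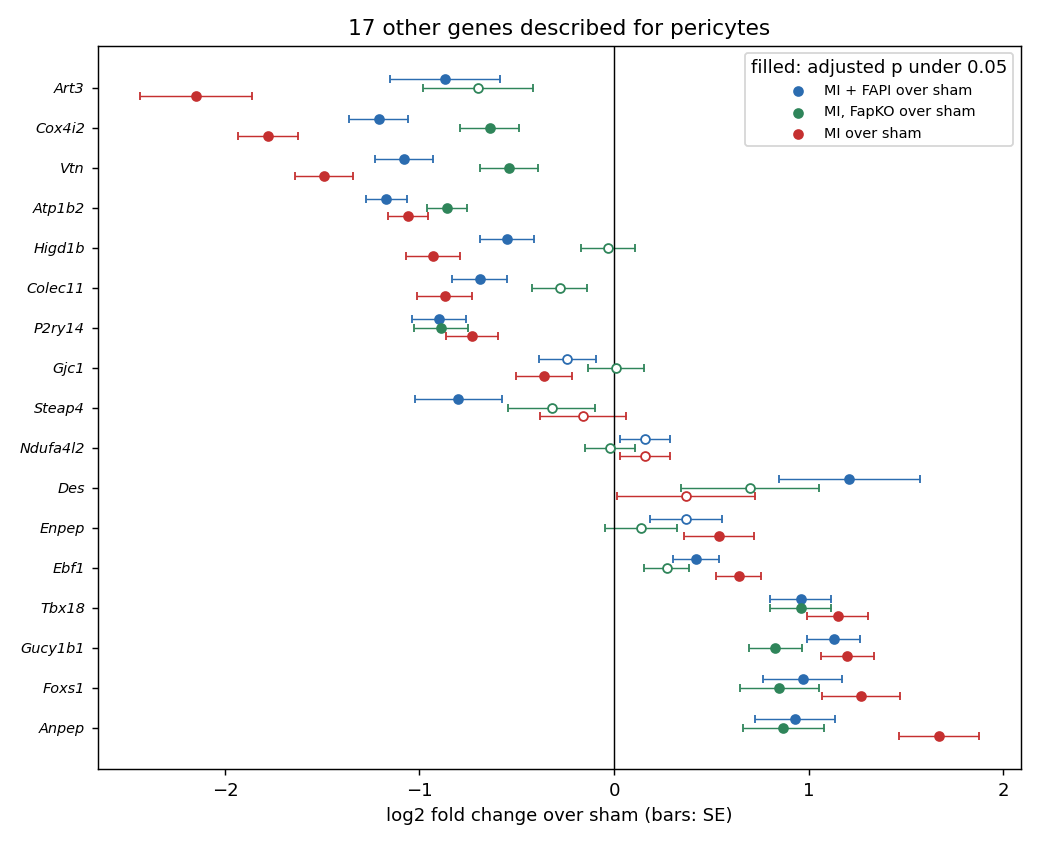
Log2 fold change over sham (horizontal axis, bars SE) of 17 other genes described for pericytes, in MI + FAPI, MI FapKO and MI hearts, sorted by the change in MI. Filled points passed an adjusted p of 0.05. Genes lower in MI than in sham hearts, such as Cox4i2 (-1.78), are at the top, and genes higher in MI are at the bottom.

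The RGS genes of the same subfamily as Rgs4 and Rgs5 numbered 7, of which 5 were tested and Rgs8 and Rgs13 were too low. In FAPI over MI 0 rose and 1 fell, in FapKO over MI 0 rose and 4 fell, and in MI over sham 3 rose and 1 fell. Rgs18 and Rgs1, which are known from blood cells, had the smallest p in MI over sham (2.00, adjusted p = 3.12e-06, and 2.43, adjusted p = 7.41e-05). In FapKO over MI they had -1.47 (adjusted p = 2.68e-05) and -2.05 (adjusted p = 1.08e-04).

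The neighbouring genes also differed in how they varied between hearts of the same group. As a description across the 15 hearts, deviations of log2 CPM from the group mean correlated at r = 0.79 for Kcnj8 with Abcc9, the highest of the 28 pairs of the 8 genes, and at 0.28 for Rgs4 with Rgs5. The pairs that followed were Pdgfrb with Notch3 (0.72) and Pdgfrb with Mcam (0.62), and the lowest was Rgs4 with Abcc9 (-0.51). All genes of a heart share its library, its scaling and its mix of cells. Counts of Kcnj8 per count of Abcc9 were 2.13 ± 0.13 in FAPI, 2.07 ± 0.237 in FapKO, 1.64 ± 0.19 in MI and 2.10 ± 0.367 in sham hearts (SD, n = 4, 4, 4 and 3).

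Among 13400 genes with a mean of at least 1 CPM, those whose log2 CPM followed each of the 8 most closely over the 15 hearts were named by Pearson r, as a description. Rgs5 was followed by Adra1a, an alpha adrenergic receptor gene (0.986), Prickle3 (0.983) and Gm4953 (0.975). Kcnj8 was followed by Abcb8 (0.993), a mitochondrial transporter gene, Coq8a (0.992), a gene of coenzyme Q synthesis, and Gm48226 (0.992), and Abcc9 by Mief2 (0.985), Pick1 (0.984) and Med16 (0.983). Pdgfrb was followed by Flna (0.977), which encodes filamin A, Renbp (0.976) and Csk (0.975), and Mcam by Hdac7 (0.977), Bin2 (0.975) and Pck2 (0.975). For Cspg4 the closest were Rock2 (0.969), Ranbp2 (0.945) and Smad4 (0.943), for Rgs4 Gfod2 (0.948), Serpinh1 (0.911), a collagen chaperone gene, and Plin2 (0.907), and for Notch3 Zfp385a (0.941), Adap2 (0.901) and Adap2os (0.899). No 2 of the 8 were among each other's closest 3 genes. The nearest member to Kcnj8 was Abcc9 (0.973) and the nearest to Rgs5 was Kcnj8 (0.933).

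In the cultured fibroblasts the genes fell into a different order. Pdgfrb was by far the highest, and the leading pericyte gene of the hearts, Rgs5, had few counts. Of the 8 genes, 4 passed the filter on low counts. Pdgfrb and Notch3 were higher in co-culture. Rgs4 and Cspg4 passed the filter only through the fibroblasts alone, where they were high, so their test carries no information and only their counts are given. Among the 12293 genes tested 59.8% were called, 30.3% higher and 29.5% lower in co-culture, and the groups did not overlap in 67.0% of them. The co-cultured cells had been sorted and the others had not, and co-culture libraries were smaller, so that sorting, depth and co-culture cannot be told apart.

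Pdgfrb had 95.0, 86.5 and 107 CPM in co-culture, against 56.2, 50.8 and 51.4 CPM alone, without overlap. The log2 fold change was 0.87 (SE 0.12, adjusted p = 3e-04). Pdgfra, the marker used for the sort, had 105 ± 8.36 CPM in co-culture and 34.4 ± 5.55 CPM alone (SD, n = 3 each). Notch3 had 11.4, 6.48 and 9.25 CPM in co-culture, against 3.54, 6.21 and 2.85 CPM alone, with the lowest co-culture library just above the highest of the others. Its change of 1.13 (SE 0.331, adjusted p = 0.0164) missed the threshold without co-culture replicate 1 (0.94, adjusted p = 0.0698), co-culture replicate 3 (1.10, adjusted p = 0.0577) or alone replicate 3 (0.89, adjusted p = 0.0501). Of the 12 other Notch genes 5 were tested, of which 2 were higher, 0 lower and 3 did not pass (median 0.26, Notch4 included). The higher ones were Heyl, a Notch target of mural cells (1.66, adjusted p = 0.0014), and Notch4, an endothelial receptor. Notch4 passed the filter only through co-culture, where it was high, so its test carries no information. It had 16, 15 and 19 counts in co-culture and 11, 16 and 8 counts alone. The 3 that did not pass were Hes1, another target (0.26, adjusted p = 0.127), Notch2 (-1.06, adjusted p = 0.231) and Jag1 (-1.71, adjusted p = 0.0578). Alone replicate 2 was far above the other libraries in both Notch2 and Jag1. Notch2 had 51.8, 449 and 77.7 CPM alone, against 140, 76.9 and 60.6 CPM in co-culture. Jag1 had 101, 859 and 166 CPM alone, against 155, 97.9 and 91.7 CPM in co-culture.

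Rgs4 and Cspg4 had 0 to 2 counts a library in co-cultured fibroblasts. Rgs4 had 0, 2 and 2 counts in co-culture, against 33, 26 and 29 counts alone, and Cspg4 had 1, 0 and 0 counts, against 40, 37 and 33. Rgs5 had 3, 4 and 5 counts in co-culture and 9, 10 and 11 counts alone. As a ratio of CPM from summed counts, Rgs5 in co-culture was 1.34 of its level alone (exact 95% interval 0.626 to 2.70). This interval and those that follow cover counting error only, and not the spread between libraries. Kcnj8 had 1, 2 and 6 counts in co-culture against 1, 1 and 0 alone, and Abcc9 6, 3 and 2 counts against 1, 1 and 1. Their ratios of 15.1 (interval 3.13 to 144) and 12.3 (3.25 to 68.8) rest on 9 and 11 counts. Mcam had 0, 4 and 2 counts in co-culture against 24, 11 and 25 alone (ratio 0.336, interval 0.119 to 0.775).

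**Figure D5:**
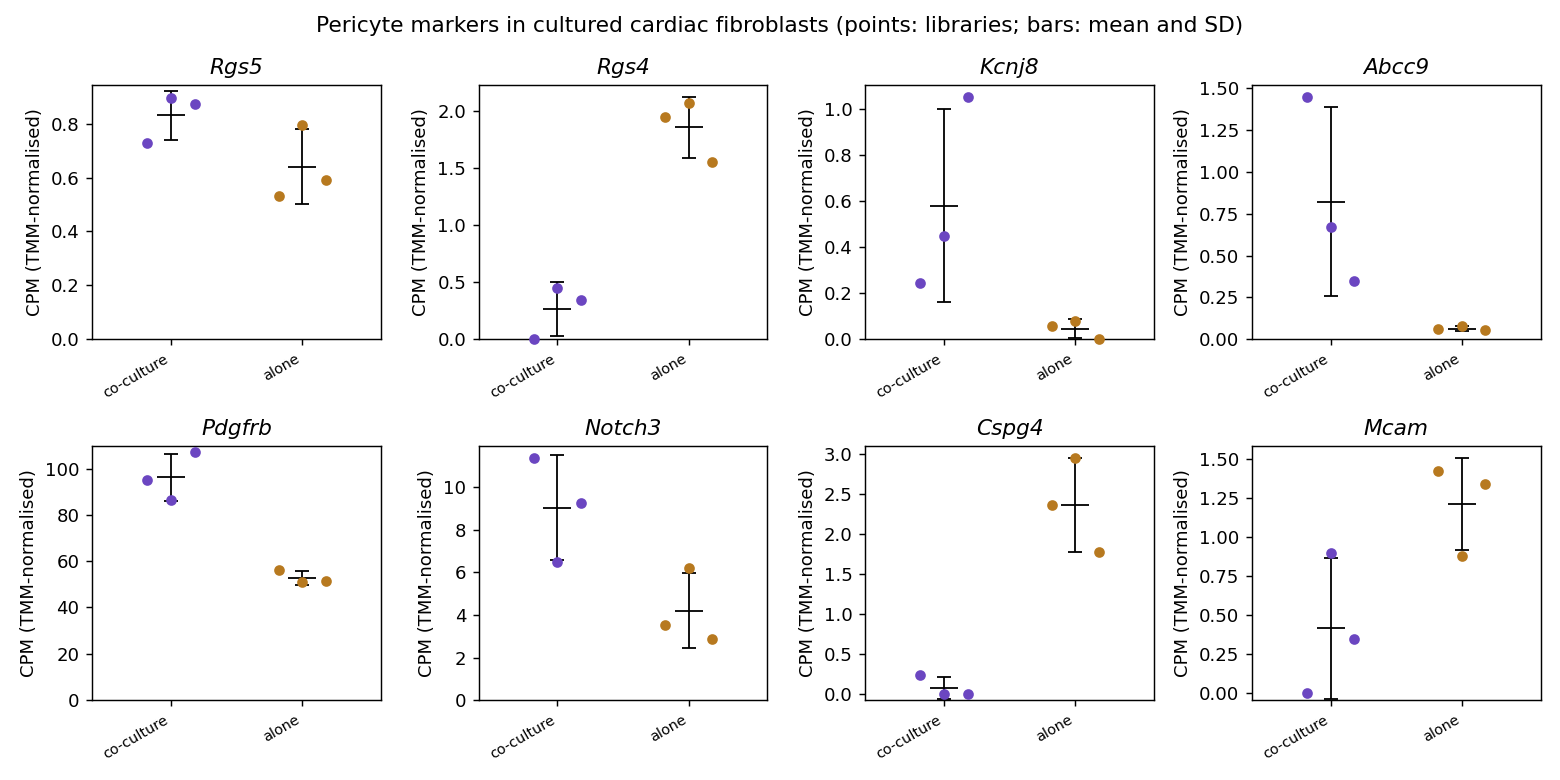
CPM of the 8 genes in cardiac fibroblasts from co-culture with endothelial cells and in fibroblasts alone (vertical axes, linear, starting at or just below 0). Points are libraries, horizontal lines are means and bars are SD. Pdgfrb reaches 86.5 to 107 CPM in co-culture and 50.8 to 56.2 CPM alone, while Rgs5, Kcnj8 and Abcc9 do not exceed 1.45 CPM.

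The 12 endothelial markers summed to 27.63 to 32.48 CPM in co-culture, with Erg at 0, and 24 to 26.78 CPM alone. The 10 macrophage markers summed to 99.53 to 138.8 CPM in co-culture and 329.1 to 420.9 CPM alone, and the 12 smooth muscle contractile genes to 1173 to 1357 CPM in co-culture and 3292 to 5398 CPM alone, with 8 lower, 1 higher and 1 not passing of 10 tested. The part of these cells in the Rgs4, Cspg4 and Mcam counts was not tested. Of the 17 other pericyte genes 14 were tested, and 9 were higher and 3 lower in co-culture (median 2.19), and the smallest p-values were those of Ndufa4l2, a mitochondrial gene of mural cells (3.20, adjusted p = 1.64e-06), and Foxs1, a transcription factor gene expressed in pericytes (2.29, adjusted p = 3.12e-06). The higher genes of that list include some that passed the filter only through co-culture. Vtn of that list had 0 counts in both groups.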

How the data were processed

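Total RNA of hearts and polyadenylated RNA of fibroblasts went into a Smart-seq2 protocol modified to add molecular barcodes, per the labels' protocols. The tools were STAR for alignment (mm10) and HTSeq for counting, per the submitters' processing notes, and neither their versions nor the strand setting are given in the sources used here. The authors deposited raw whole-number counts for each gene. The fibroblast files alone are named as having had duplicates removed, a step no source used here describes, so hearts and cultures were not compared with each other. Gene identifiers were matched to GENCODE M21 (53706 of 53801 had a symbol, and 0 entries name no gene). A series-wide table of 6 columns was not used.

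Genes were filtered with filterByExpr, scaled with TMM and tested with edgeR 4.0.16 (quasi-likelihood F test, R 4.3.3) with Benjamini-Hochberg adjustment at 0.05, in one fit of 15 hearts and another of 6 fibroblast libraries. The SE was computed as the size of the log2 fold change over the square root of F. TMM factors were 0.929 to 1.14 in FAPI, 0.888 to 0.986 in FapKO, 1.24 to 1.55 in MI and 0.626 to 0.697 in sham hearts. Mitochondrial transcripts held 10.9% to 13.2% of counts in FAPI, 13.0% to 14.1% in FapKO, 4.18% to 8.03% in MI and 15.2% to 19.6% in sham hearts. No replicate repeated another (chi-square 3.14 to 178 per degree of freedom). The highest values were those of fibroblasts alone, replicate 2 against replicates 1 (178) and 3 (160), while replicates 1 and 3 had 9.69. The labels do not say that heart replicates are separate animals, so p-values measure only how far these libraries spread, which may be technical, and nothing in the labels gives a batch. Alternatives included DESeq2 1.42.0 and limma-voom (limma 3.58.1).

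The 8 genes and the gene lists were chosen with earlier results of these data known, and 1 gene of the longer pericyte list is not reported here. From each list the text names at most the 2 genes with the smallest p in a comparison, all genes of lists of 5 or fewer, markers at 0, and the genes used in ratios or for a check. For each of the 8 it names the 3 genes with the highest Pearson r of log2 CPM over the hearts (mean of at least 1 CPM). Promoter sequences come from RefSeq (GRCm38.p6), and figures were drawn with matplotlib 3.10.9.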

Additional observations from a re-analysis of the deposited data

How the results depend on the processing

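The 7 comparisons were repeated with RLE size factors, total-count scaling, scaling without mitochondrial and the 50 most abundant genes, all genes kept, genes kept at 1 CPM in 3 libraries, DESeq2, limma-voom, a replicate block, each library left out, and only the 2 groups compared. Of 850 recomputed log2 fold changes of the 8 genes, 787 kept direction and side of the threshold, 30 lost a call, 17 gained one and 16 changed sign. The 787 include 14 values each for Rgs4 and Cspg4 in the cultures, whose tests carry no information. Every sign change was in Rgs5, Rgs4 or Notch3. With total-count scaling Rgs5 had 0.14 in MI over sham, -0.08 in FAPI over MI, 0.05 in FAPI over sham and 0.23 in FapKO over sham, Rgs4 had -0.39 in FAPI over MI, and Notch3 had 0.01 in FAPI over FapKO. Rgs4 in FAPI over MI, at 0.04 in the reported fit, was -0.15 and -0.06 without MI replicates 3 and 4, -0.10 and -0.05 without FAPI replicates 1 and 2, and 0.00 (below zero before rounding) with only the 2 groups. Notch3 in FAPI over sham, reported at 0.01, was -0.05 with RLE factors and with DESeq2, 0.00 with limma-voom (below zero before rounding), -0.02 without sham replicate 1 and -0.08 without FAPI replicate 3, in a range of -0.08 to 0.06 over the hearts left out. The cause was not tested.

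The number of the 8 genes called in FAPI over FapKO was 1 in the reported fit, 2 with no filter, 3 with DESeq2, 2 with limma-voom and 0 to 2 with 1 heart left out. Over all genes, no filter gave 2500 calls in that comparison and limma-voom 2242. When calls also had to be 2-fold or more (1 on the log2 scale), the counts were 4 in MI over sham, 0 in FAPI over MI, 2 in FapKO over MI, 0 in FAPI over FapKO, 2 in FAPI over sham and 0 in FapKO over sham. Over all 17064 genes the same rule called 6895, 1448, 3218, 552, 4340 and 2028, in that order. Leaving out 1 library gave 8 in MI over sham, 4 to 6 in FAPI over MI, 6 to 7 in FapKO over MI, 7 in FAPI over sham, 4 to 5 in FapKO over sham and 3 to 5 in the cultures, against 4 in the reported fit, which counts Rgs4 and Cspg4. Over all genes it gave 10803 to 11597 in MI over sham, 3359 to 5495 in FAPI over MI and 7383 to 8681 in FapKO over MI. The ranges were 8067 to 9539 in FAPI over sham, 4706 to 6832 in FapKO over sham and 6405 to 7808 in the cultures. Over all genes, calls in FAPI over MI were 5081 in the reported fit, 9933 with total-count scaling and 3359 without FAPI replicate 4, and calls in FAPI over FapKO were 2247 in the reported fit, 1125 to 1430 without FAPI replicate 1 or 3 or FapKO replicate 1 or 3, 1818 to 2920 without any other heart, and 2682 with DESeq2. In the cultures no filter gave 7 calls of 8 tested, among them Rgs4, Cspg4 and other genes with few counts. Libraries thinned to 4735337 counts gave 2 calls of 2 tested. Over all genes, no filter gave 8303 calls in the cultures and thinning 6431.

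Deviations of hearts with the same replicate number correlated at -0.294 to 0.322 over 21 pairs (median 0.069). Hearts with different numbers had -0.379 to 0.451 over 63 pairs (median -0.025). Culture libraries had -0.183 to 0.064 with the same number and -0.12 to 0.184 with different numbers. With so few libraries a group, these values cannot decide whether the numbers pair them. With the replicate block the counts were 8 in MI over sham, 6 in FAPI over MI, 6 in FapKO over MI, 1 in FAPI over FapKO, 7 in FAPI over sham, 6 in FapKO over sham and 4 in the cultures, Rgs4 and Cspg4 included. Over all genes the block gave 11687, 4968, 8630, 2035, 9395, 6662 and 6862 calls, in that order. In FapKO over sham the block ended the call of Rgs5 (-0.28, adjusted p = 0.0889) and gave one to Rgs4 (0.70, adjusted p = 0.0121).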
